A study of Mus musculus with 12 samples.

Results

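The cytokines leukemia inhibitory factor (LIF), interleukin 6 and oncostatin M, their receptors and the STAT3 and SOCS3 proteins that act below them were examined in the mouse uterus. The set was 10 genes, Lif, Lifr, Il6, Il6ra, Il6st, Osm, Osmr, Il11ra1, Stat3 and Socs3, and every array probe with one of these gene symbols was taken. Of the 10 genes, 9 had a probe, with 23 probes among the 45281 on the array. In all, 13 of the 23 probes were detected on at least 3 of the 12 arrays, and these represent 8 of the 12194 genes tested. Il6 had no detected probe and Il11ra1 was not analysed here.

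RNA from whole uteri of female C57BL/6 mice, aged 2 months, was measured on Illumina bead arrays, 3 arrays per genotype. Each array is treated here as 1 uterus. The double cKO uteri are labelled negative for both Cdh1, which encodes the epithelial adhesion protein E-cadherin, and P53. The uteri labelled Cdh1 cKO are negative for Cdh1 and positive for P53, the P53 cKO uteri are negative for P53 and positive for Cdh1, and the control uteri, titled CO, are wild type for both. Which recombinase acted, which exons were removed, the cycle stage at necropsy and whether animals were pooled could not be taken from the labels.

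As background, cytokines of this family signal through receptor complexes built around the shared chain gp130, the product of Il6st. Lifr and Osmr encode partner chains of gp130 that also signal, and Il6ra encodes a chain that binds interleukin 6 without signalling itself. The complexes activate JAK kinases, which phosphorylate STAT3, and STAT3 induces Socs3, whose product binds gp130 and the JAKs and shuts the signal off. In the mouse uterus, LIF from the glands is needed for the embryo to implant, and it acts through gp130 and STAT3 in the epithelium. Macrophages, neutrophils and T cells are known sources of oncostatin M.

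Between 20075 and 21670 probes were detected per array, and the median probe was read on 41 to 43 beads. Uterine transcripts such as Hoxa10, Pgr, Esr1 and Hand2 were detected on all 3 control arrays. Correlations between arrays of 1 genotype were 0.9635 to 0.9903 and overlapped those between genotypes, 0.9567 to 0.9873. The brightest Cdh1 probe gave log2 signals of 9.67, 8.18 and 7.36 in double cKO uteri, 9.74, 9.58 and 9.98 in uteri labelled Cdh1 cKO, 9.26, 9.13 and 9.04 in P53 cKO uteri and 9.71, 9.41 and 10.08 in controls. Its level in the uteri labelled Cdh1 cKO and in double cKO replicate 1 was thus at that of controls, and since its place relative to the deleted part is unknown it does not check the genotype. Trp53, the mouse gene for P53, was not analysed here. In bulk tissue, fewer cells of a type and less RNA per cell cannot be told apart.

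In double cKO uteri, the ligand gene Osm, its receptor gene Osmr and the feedback inhibitor gene Socs3 rose over control, and the same 3 genes and Stat3 rose over P53 cKO. Lif, Lifr, Il6ra and Il6st did not pass the test in any comparison. Against control no member passed in the P53 cKO uteri or in those labelled Cdh1 cKO, and none passed between the double cKO and the uteri labelled Cdh1 cKO or in the interaction. Calls are limma adjusted p-values below 0.05, with the adjustment over all 12194 genes. Against control, 3 of the 8 tested members were called higher and 0 lower in the double cKO, where 1.91% of all tested genes were called higher and 0.82% lower. Against P53 cKO, 4 of the 8 were called higher and 0 lower, where 1.27% of all tested genes were called higher and 0.172% lower. Both comparisons use the same double cKO arrays, and the members were chosen with earlier results of these data known. Without double cKO replicate 1, Osm was the 1 member called in each of them. In that fit 194 of all 12194 genes were called against control and 122 against P53 cKO.

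**Figure D1:**
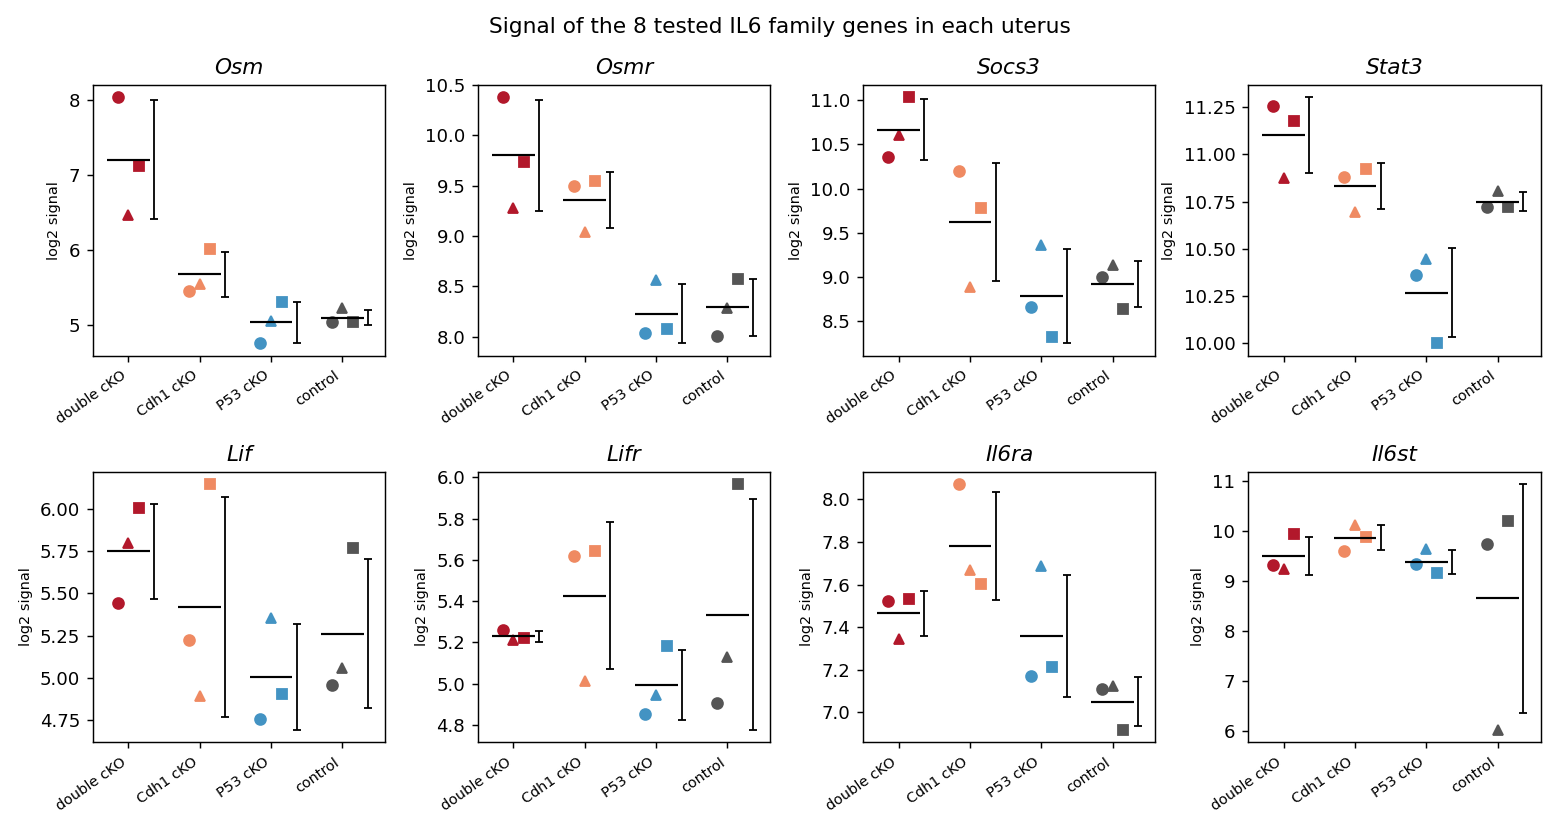
The log2 signal of each of the 8 tested genes is plotted for every uterus (circles, triangles and squares for replicates 1, 2 and 3) with the group mean (line) and SD (bar), double cKO on the left and control on the right. All 3 double cKO points of Osm, Osmr and Socs3 lie above all 3 control points, and control replicate 2 stands apart for Il6st.

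The ligands are described first. Osm encodes oncostatin M, which in the mouse acts mainly through a complex of gp130 with the Osmr chain. Its detected probe gave log2 signals of 8.04, 6.46 and 7.11 in double cKO uteri, 5.46, 5.55 and 6.01 in uteri labelled Cdh1 cKO, 4.76, 5.05 and 5.30 in P53 cKO uteri and 5.04, 5.22 and 5.04 in controls. All 3 double cKO uteri were above all 9 others, while the P53 cKO and control values overlapped and lay near the lowest detected signal of an array, 4.80 to 4.98. The difference of double cKO from control was 2.10 ± 0.33 on the log2 scale (SE, n = 3 each), a 4.29-fold higher signal with a limma adjusted p of 0.008395. The size depends on how the background is corrected, and with a normexp offset of 50 it was 1.26 with an adjusted p of 0.02212. It was 1.69 without double cKO replicate 1, with an adjusted p of 0.01009.

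Against P53 cKO, where 2 of 3 arrays detected the probe, Osm was at least 4.39-fold higher in the double cKO, with a limma adjusted p of 0.009526. Without P53 cKO replicate 1 that adjusted p was 0.05747, and without double cKO replicate 1 the log2 difference was 1.75 with an adjusted p of 0.012. The difference from the uteri labelled Cdh1 cKO, 1.53 ± 0.33, had a limma adjusted p of 0.103. Without double cKO replicate 2 it was 1.90 with an adjusted p of 0.02425. The Cdh1 cKO minus control difference was 0.57 (adjusted p 0.6756), and the P53 cKO minus control difference was -0.06 (adjusted p 0.9995). The other Osm probe was detected on 1 array.

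Lif encodes the cytokine that gave the family its role in implantation. Its brightest detected probe gave log2 signals of 5.44, 5.80 and 6.00 in double cKO uteri, 5.22, 4.89 and 6.15 in uteri labelled Cdh1 cKO, 4.75, 5.36 and 4.90 in P53 cKO uteri and 4.96, 5.06 and 5.77 in controls. The values were dim and the 4 groups overlapped, apart from the double cKO and P53 cKO uteri. The double cKO minus control difference was 0.49 ± 0.33 with a 95% interval of -0.25 to 1.22 and a limma adjusted p of 0.5114. Against P53 cKO the double cKO was higher by 0.74, with an adjusted p of 0.3697. At this spread neither the absence of a difference from control nor one as large as that upper bound could be told from the data.

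A second Lif probe separated the groups more. It gave 5.37, 5.88 and 5.95 in double cKO uteri, 5.23, 4.75 and 5.66 in uteri labelled Cdh1 cKO, 4.54, 5.17 and 4.39 in P53 cKO uteri and 4.81, 4.93 and 4.77 in controls. All 3 double cKO values of this probe were above all 3 control values. With p-values adjusted over all detected probes, its double cKO minus control difference of 0.90 ± 0.27 had a limma adjusted p of 0.1347, and its double cKO minus P53 cKO difference of 1.03 an adjusted p of 0.127. Another 3 Lif probes did not reach the detection limit of 3 arrays. The only Il6 probe was detected on no array, with log2 signals of 4.22 to 4.71. Lif and Osm are neighbours on chromosome 11, with 0 protein-coding genes between them in RefSeq, and 4 of the 10 members lie on that chromosome, which also carries Trp53.

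Among the receptors, Osmr was called in 2 comparisons. It gave 10.38, 9.28 and 9.74 in double cKO uteri, 9.49, 9.04 and 9.55 in uteri labelled Cdh1 cKO, 8.04, 8.56 and 8.08 in P53 cKO uteri and 8.01, 8.29 and 8.57 in controls. Both groups that are labelled Cdh1 negative lay wholly above both groups that are not, and they overlapped each other. The double cKO minus control difference was 1.51 ± 0.28, a 2.85-fold higher signal with a limma adjusted p of 0.02039. Against P53 cKO the double cKO was higher by 1.57, a 2.98-fold higher signal with an adjusted p of 0.02243. The Cdh1 cKO minus control difference of 1.07 ± 0.28 had an adjusted p of 0.3023 and an unadjusted p of 0.003169, and the double cKO minus Cdh1 cKO difference was 0.44 with an adjusted p of 0.772.

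Both Osmr calls depend on single arrays. Leaving out double cKO replicate 1, the difference from control was 1.22 with a limma adjusted p of 0.05268, and that from P53 cKO was 1.28 with an adjusted p of 0.05603. With 1 of the 6 arrays left out, the difference from control ranged from 1.22 to 1.77 and its adjusted p from 0.01392 to 0.09273, and the call was kept only without double cKO replicate 2 or control replicate 3. The difference from P53 cKO ranged from 1.28 to 1.83, its adjusted p from 0.01382 to 0.116, and the call was kept only without double cKO replicate 2 or P53 cKO replicate 2. A short stretch around the Osmr start site is shown because it holds 1 of the motif letters searched for. It is from RefSeq (GRCm38.p6, chr15:6874293-6874322, minus strand), with the AP-1 letters TGANTCA in capitals.

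Osmr: ttgccccgtagtTGATTCAtagctggggcg

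The other receptor genes did not pass. Il6ra gave 7.52, 7.34 and 7.53 in double cKO uteri, 8.07, 7.67 and 7.60 in uteri labelled Cdh1 cKO, 7.17, 7.69 and 7.21 in P53 cKO uteri and 7.11, 7.12 and 6.92 in controls. On this brightest probe all 9 mutant values thus lay above all 3 control values. The differences from control were 0.42 ± 0.19 in the double cKO (limma adjusted p 0.2834), 0.73 ± 0.19 in uteri labelled Cdh1 cKO (adjusted p 0.2875, unadjusted 0.002357) and 0.31 in P53 cKO (adjusted p 0.9995). The 2 other Il6ra probes gave smaller differences in the same direction. These were 0.18 and 0.25 for the double cKO and 0.49 and 0.63 for the uteri labelled Cdh1 cKO. On both probes the controls, at 5.42 to 5.60 and 4.83 to 5.95, overlapped each mutant group.

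Il6st, the gene of gp130, was at 9.32, 9.24 and 9.94 in double cKO uteri, 9.60, 10.11 and 9.89 in uteri labelled Cdh1 cKO, 9.34, 9.64 and 9.17 in P53 cKO uteri and 9.74, 6.02 and 10.20 in controls. Control replicate 2 lay far below the other 11 arrays and decides the direction of each comparison with control. With it, the double cKO minus control difference was 0.85 ± 0.83 (limma adjusted p 0.6728), and without it the difference was -0.47. Lifr was dim, at 5.26, 5.21 and 5.22 in double cKO uteri, 5.62, 5.01 and 5.64 in uteri labelled Cdh1 cKO, 4.85, 4.94 and 5.18 in P53 cKO uteri and 4.91, 5.13 and 5.97 in controls. The double cKO and control values of Lifr overlapped, with a difference of -0.10 ± 0.27 and a limma adjusted p of 0.9016.

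Stat3 encodes the transcription factor that gp130 activates. It gave 11.26, 10.87 and 11.17 in double cKO uteri, 10.88, 10.70 and 10.92 in uteri labelled Cdh1 cKO, 10.36, 10.45 and 9.999 in P53 cKO uteri and 10.72, 10.81 and 10.72 in controls. On this brightest probe the P53 cKO uteri were the lowest group, with all 3 values below all 9 others. The 2 other Stat3 probes also had their lowest mean in P53 cKO, but not the separation. There P53 cKO replicate 2 was at 10.65 and 9.26, and the controls at 10.60 to 10.72 and 8.75 to 9.18. The double cKO minus P53 cKO difference was 0.83 ± 0.17, a 1.78-fold higher signal with a limma adjusted p of 0.03415, while the double cKO minus control difference was 0.35 ± 0.17 (adjusted p 0.3105) and the P53 cKO minus control difference -0.48 ± 0.17 (adjusted p 0.9995, unadjusted 0.01428). The call was kept only without double cKO replicate 2 when single arrays were left out (0.70 to 0.95, adjusted p 0.04012 to 0.1606), and without double cKO replicate 1 the difference was 0.76 with an adjusted p of 0.1145. The other 2 Stat3 probes gave 0.65 and 0.61 for the same difference, with adjusted p-values over all probes of 0.174 and 0.4504.

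Socs3 gave 10.35, 10.61 and 11.03 in double cKO uteri, 10.20, 8.89 and 9.78 in uteri labelled Cdh1 cKO, 8.66, 9.37 and 8.33 in P53 cKO uteri and 8.999, 9.14 and 8.64 in controls. All 3 double cKO values were above all 9 others, while the other groups overlapped one another. The double cKO minus control difference was 1.74 ± 0.35, a 3.33-fold higher signal with a limma adjusted p of 0.02888. Against P53 cKO the double cKO was higher by 1.88, a 3.68-fold higher signal with an adjusted p of 0.02775. The Cdh1 cKO minus control difference was 0.70 (adjusted p 0.6213) and the double cKO minus Cdh1 cKO difference 1.04 (adjusted p 0.428).

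The size of the Socs3 difference held more firmly than its call. Without 1 of the 6 arrays, the double cKO minus control difference was 1.55 to 1.89, but its limma adjusted p was 0.05268 to 0.122, above the threshold each time. The lower bound of these p-values is the one without double cKO replicate 1. Against P53 cKO the difference was 1.65 to 2.17 with adjusted p-values of 0.02428 to 0.1373, and was called only without P53 cKO replicate 2. Socs3 is known as a direct STAT3 target and has the only member window with STAT letters, though Osm had no window to search. Part of the Socs3 promoter is shown for this reason. It is from RefSeq (GRCm38.p6, chr11:117969447-117969566, minus strand), at offsets -200 to -81 from the start site, with the letters TTCNNNGAA in capitals.

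Socs3: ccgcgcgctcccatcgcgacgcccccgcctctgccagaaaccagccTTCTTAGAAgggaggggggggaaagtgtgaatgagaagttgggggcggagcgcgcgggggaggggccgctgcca

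RefSeq windows reaching from 250 bases before to 50 after the start were found for 9 of the 10 members. They were 11 windows, with none for Osm. On both strands, the STAT letters TTCNNNGAA occurred in 1 member window (Socs3) and in 8.3% of all 32851 windows. The AP-1 letters TGANTCA occurred in 3 member windows (Lif, Il6 and Osmr) and in 7.81% of all windows. The NF-kB letters, GGGA and TTTCC with any base between, occurred in 1 member window (Il6) and in 0.411% of all. These matches describe letters and do not show that a factor binds there.

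**Figure D2:**
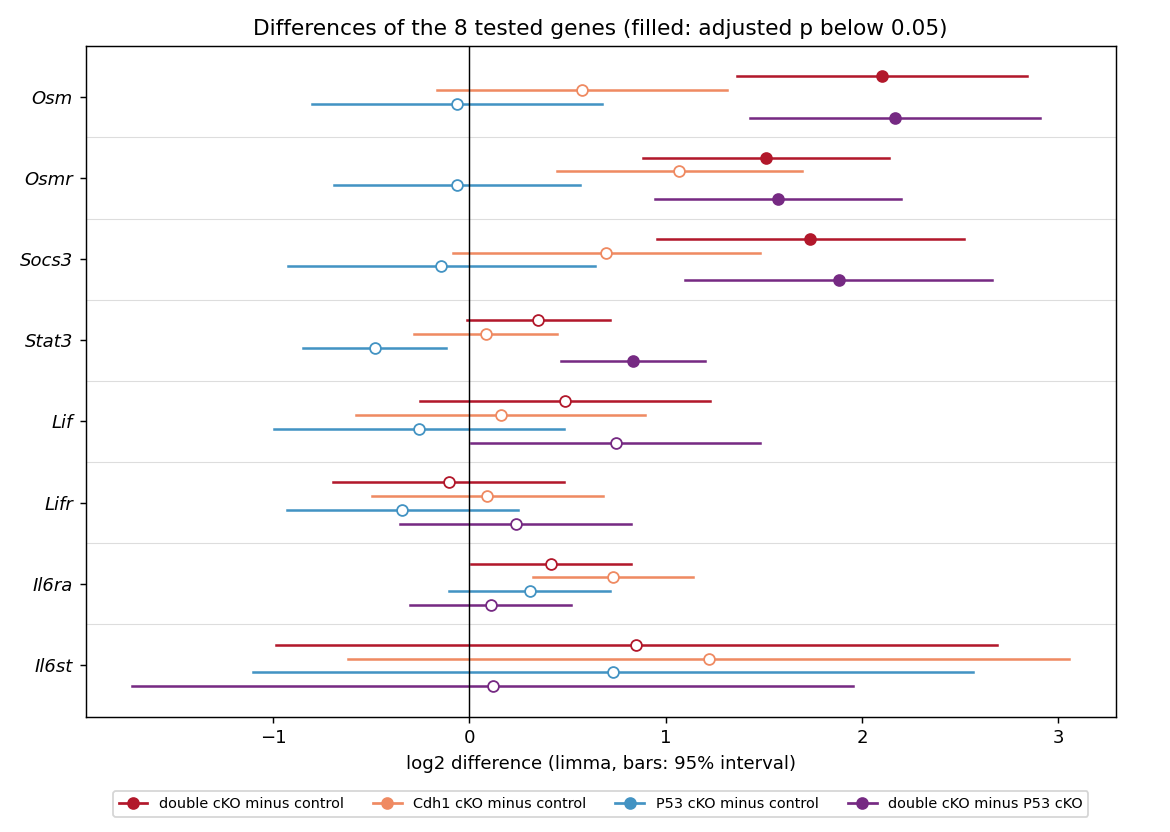
Log2 differences (points) with 95% intervals from the limma fit (bars) are plotted for the 8 tested genes in 4 comparisons, with filled points for adjusted p below 0.05. Osm, Osmr and Socs3 have filled points for the double cKO against both control and P53 cKO, and Stat3 against P53 cKO only.

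The members were chosen with earlier results of these data known, so their counts beside those of all genes are description only. Read as a set, the members' differences in the double cKO against control had a median of 0.669, beside -0.0449 over all genes tested. Of these, 7 of 8 were above 0, beside 44.6% of all genes. The 3 double cKO values lay wholly above the 3 control values for 5 of 8 members, and for 11.5% of all genes. Against P53 cKO these were a median of 0.789, beside -0.0438 for all genes, and 6 of 8 members wholly above, beside 10.4%. Between the uteri labelled Cdh1 cKO and the controls, all 8 differences were above 0 with a median of 0.636, beside -0.0252 for all genes, and 3 of 8 lay wholly above, beside 5.23%. In that comparison 0 of 8 members were called, and 0.0082% of all genes were. Il6st is among the differences above 0 in each comparison with control, and control replicate 2 decides its sign. Without that array the Il6st difference was -0.47 in the double cKO, -0.10 in uteri labelled Cdh1 cKO and -0.59 in P53 cKO. The medians and counts above 0 against control thus rest partly on that array.

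In P53 cKO against control, 2 of 8 members were above 0 and 6 below, with a median of -0.103 beside -0.00677 for all genes, and 0 of 8 were called, beside 0.0164% of all genes. Unadjusted p-values were below 0.05 for 1 of the 8 members there and for 2.38% of all genes. The double cKO against the uteri labelled Cdh1 cKO gave 5 of 8 above 0 and 0 called, beside 0.492% of all genes called. The interaction, which asks whether the double cKO departs from the sum of both single effects, had 0 of 8 called, beside 0.0984% of all genes. Osm had an interaction of 1.59 ± 0.47 (limma unadjusted p 0.006426, adjusted 0.6942). Stat3 had one of 0.75 ± 0.23 (limma unadjusted p 0.008406, adjusted 0.7302). Unadjusted, 4 of 8 members and 4.78% of all genes had an interaction p below 0.05.

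The wider pathway was counted in 5 lists. Over all genes tested, 1.91% rose and 0.82% fell in the double cKO against control. Of the 12 IL6 family ligands, 6 were tested and 2 rose in the double cKO against control, Osm and Clcf1, which encodes a ligand of the ciliary neurotrophic factor receptor. Clcf1 was at 6.11, 6.44 and 6.75 in double cKO uteri and 5.23, 5.55 and 5.05 in controls, 2.23-fold higher with a limma adjusted p of 0.01704. Its 2 other probes gave log2 differences of 0.923 and 0.967. Without double cKO replicate 1 the Clcf1 difference was 1.32 with a limma adjusted p of 0.01497. Cntf, Ctf2, Il27, Il31 and Il6 were detected on no array. Ctf1 (-0.05, adjusted p 0.9494), Ebi3 (0.66, adjusted p 0.2475) and Il11 (-0.23, adjusted p 0.887) did not pass. Of the 9 receptor genes, 6 were tested and Osmr alone was called. Cntfr, the gene of the ciliary neurotrophic factor receptor, was detected on no array. Il27ra, a gp130 partner for interleukin 27, had a difference of -0.77 ± 0.21 with a limma adjusted p of 0.08632.

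Of 24 tested JAK, STAT and inhibitor genes, 3 rose in the double cKO against control and 0 fell, with a median of 0.109. Over all genes tested 1.91% rose and 0.82% fell, with a median of -0.0449. Besides Socs3 these were Cish, a SOCS family inhibitor best known as a STAT5 target, and Ptpn6, which encodes the phosphatase SHP-1 of blood cells. Cish was at 10.43, 10.41 and 10.69 in double cKO uteri and 9.30, 9.44 and 9.62 in controls (limma adjusted p 0.02388). Ptpn6 was at 9.81, 9.75 and 9.97 in double cKO uteri and 8.92, 8.93 and 8.60 in controls (adjusted p 0.01332). Both were also higher than in P53 cKO, with adjusted p-values of 0.02775 for Cish and 0.03342 for Ptpn6. Without double cKO replicate 1, Ptpn6 was the 1 gene of this list called against control (adjusted p 0.03805), and Cish had an adjusted p of 0.05786. Against P53 cKO, leaving out that replicate gave adjusted p-values of 0.06701 for Cish and 0.08563 for Ptpn6, and 0 of the 24 genes were called. In that fit 194 of all 12194 genes were called against control and 122 against P53 cKO. The kinase genes Jak1 (-0.96 ± 0.24, adjusted p 0.05806) and Jak2 (-0.42 ± 0.25, adjusted p 0.4301), the phosphatase gene Ptpn11 (0.09 ± 0.16, adjusted p 0.8495) and the SOCS family gene Socs2 (0.11 ± 0.34, adjusted p 0.9231) did not pass.

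Genes known to respond to STAT3 were the largest list. Of 43 tested, 8 rose in the double cKO against control and 0 fell, 32 differences were above 0, and the median was 0.502. Over all genes tested 1.91% rose, 0.82% fell and 44.6% were above 0, with a median of -0.0449. Without the members, 6 of 38 rose and the median was 0.458. Without double cKO replicate 1, 2 of the 43 were called against control, Tnfaip3 and Chil1, and the median was 0.52. Of all 12194 genes, 194 were called against control in that fit. Tnfaip3, an inhibitor of NF-kB signalling, was at 7.57, 6.92 and 6.52 in double cKO uteri and 4.85, 5.27 and 4.997 in controls, 3.90-fold higher (limma adjusted p 0.006136). Chil1, a secreted chitinase-like protein of macrophages and neutrophils, was at least 69.35-fold higher than in controls, where 1 of 3 arrays detected it (adjusted p 0.007846). Many of these genes also respond to NF-kB or mark myeloid cells, so the list does not isolate STAT3.

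Junb, an AP-1 subunit gene, had a difference of 1.71 (limma adjusted p 0.04015). Bcl3, a cofactor of NF-kB, had one of 1.91 (adjusted p 0.04411). Cp, the copper carrier ceruloplasmin, had one of 2.59 (adjusted p 0.03377), with the other Cp probes at 0.691 and 2.02. Without double cKO replicate 1 the limma adjusted p-values were 0.09735 for Junb, 0.08375 for Bcl3 and 0.1162 for Cp. Lcn2, an iron-trapping protein of epithelium and neutrophils, gave 14.83, 14.11 and 14.98 in double cKO uteri and 9.71, 9.37 and 14.29 in controls, and with control replicate 3 high its difference of 3.52 ± 1.18 did not pass (adjusted p 0.1503). Cebpb (1.09 ± 0.33, adjusted p 0.1099), Mt1 (0.26 ± 0.46, adjusted p 0.853) and Gadd45g (-0.05 ± 0.73, adjusted p 0.9873) did not pass either. Against P53 cKO, 6 of the 43 rose and 34 were above 0, with a median of 0.552. Over all genes 1.27% rose and 44.9% were above 0 there, with a median of -0.0438. Without double cKO replicate 1 the called genes of the list were 0 and its median 0.557, beside 122 of all 12194 genes called. Between the uteri labelled Cdh1 cKO and the controls, 0 of the list were called and 34 were above 0, with a median of 0.314. Over all genes 0.0082% were called and 46.4% were above 0 there, with a median of -0.0252. In P53 cKO against control 0 were called and the median was -0.0236, beside 0.0164% and -0.00677 for all genes.

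Of 28 tested genes of uterine receptivity, the state in which LIF acts, 1 rose in the double cKO against control. In this list 13 were above 0, with a median of -0.0577. These are near the values over all genes, where 1.91% rose and 44.6% were above 0, with a median of -0.0449. The gene that rose was Hbegf, an epidermal growth factor family ligand that signals between the embryo and the epithelium. It was at 9.14, 8.53 and 8.98 in double cKO uteri and 6.96, 7.09 and 7.67 in controls. That was 3.13-fold higher with a limma adjusted p of 0.002557, and 2.58-fold higher than in P53 cKO with an adjusted p of 0.01043. Without double cKO replicate 1 the limma adjusted p-values were 0.01108 against control and 0.03928 against P53 cKO. Fkbp4 (-0.01 ± 0.27, adjusted p 0.9916), Gata2 (-0.62 ± 0.42, adjusted p 0.5014) and Msx1 (-1.12 ± 0.71, adjusted p 0.4652) did not pass. Bmp2, Ereg, Gli1, Msx2 and Ptgs2 were detected on no array.

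**Figure D3:**
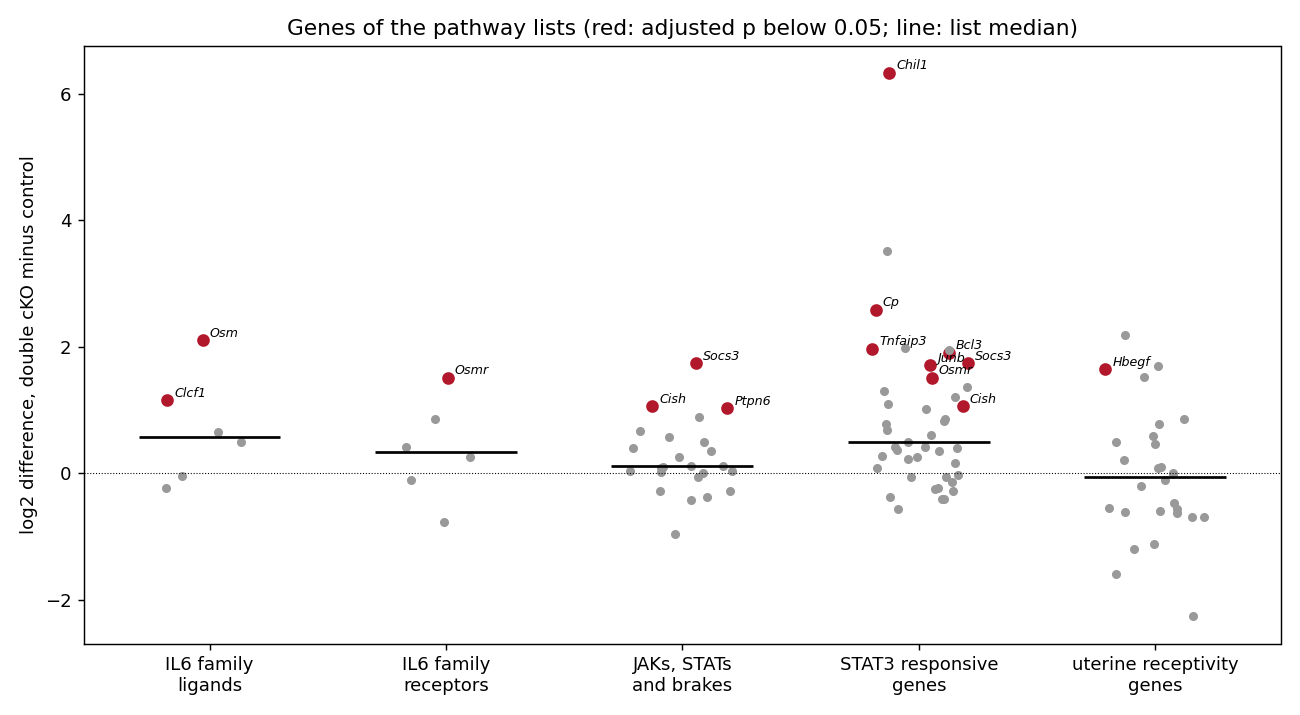
Log2 differences of the double cKO against control are plotted for every tested gene of the 5 pathway lists (points), with called genes in red and named and a line at each list's median. The called genes all lie above 0, and the STAT3 responsive list holds 8 of them.

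Markers of other cell types moved with these results. The summed signal of 13 neutrophil markers, on a log2 scale, was 15.57 to 16.07 in double cKO uteri, 13.94 to 15.94 in uteri labelled Cdh1 cKO, 14.13 to 15.09 in P53 cKO uteri and 12.51 to 14.97 in controls. Of these markers 8 of 13 rose in the double cKO against control and 9 against P53 cKO. Camp, Mmp8, Ngp and Stfa3 were detected on no array. Over all genes tested, 1.91% rose against control and 1.27% against P53 cKO. The sum of 18 macrophage markers was 15.95 to 16.02 in double cKO uteri, 14.60 to 15.12 in uteri labelled Cdh1 cKO, 14.29 to 14.95 in P53 cKO uteri and 14.05 to 14.78 in controls, and 8 of 18 rose against control and 2 against P53 cKO. When double cKO replicate 1 was left out, 8 neutrophil markers and 2 macrophage markers, Ctss and Lyz2, were called against control. Of all 12194 genes, 194 were called against control in that fit. The double cKO sums lay wholly above control for both lists. Signals were summed before the log, and the neutrophil list holds Lcn2, which is also made by epithelium. Lcn2 alone was at 13.66 where the sum was 13.94 (Cdh1 cKO replicate 1) and 14.52 where it was 15.09 (P53 cKO replicate 2). In control replicate 3 it was at 14.29 and the sum at 14.97. The neutrophil sums thus do not follow neutrophils alone. The part of these cells in the Osm, Osmr, Socs3 and Stat3 results was not tested.

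The T and NK cell markers summed to 11.78 to 11.97 in double cKO uteri and 12.05 to 12.19 in controls, with 1 of 12 lower. Over all genes tested, 1.91% were called higher and 0.82% lower in the double cKO against control. Epithelial markers summed to 14.90 to 15.39 in double cKO uteri and 13.91 to 14.95 in controls, with 1 of 16 called, Cldn4, which was higher, and Epcam detected on no array. Endothelial markers summed to 12.95 to 13.39 in double cKO uteri and 13.36 to 14.01 in controls, with 1 of 12 called, Cdh5, which was lower. Of the 15 stromal and 10 smooth muscle markers tested, 0 were called in either list. Without double cKO replicate 1, Cldn4 was called higher against control and 1 other epithelial marker lower. In that fit 0 endothelial and 0 T and NK cell markers were called against control, beside 194 of all 12194 genes. Immediate early genes, which respond to handling as well as to cytokines, summed to 13.58 to 14.26 in double cKO uteri, 13.58 to 14.76 in uteri labelled Cdh1 cKO, 13.06 to 13.48 in P53 cKO uteri and 13.03 to 13.59 in controls, with Junb and Egr2 of 15 called higher against control, and 0 without double cKO replicate 1. Their part in the Socs3 and Stat3 results was not tested.

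Among the other lists, squamous epithelium markers summed to 9.96 to 10.58 in double cKO uteri and 8.23 to 8.65 in controls, wholly above them, with 0 of 8 called. The highest sum was not in the double cKO. Uteri labelled Cdh1 cKO were at 8.79, 8.37 and 14.42, so Cdh1 cKO replicate 3 stood apart from its group. P53 cKO uteri were at 8.47 to 9.34. The 3 tested adipocyte markers summed to 6.28 to 7.09 in double cKO uteri and 8.04 to 10.46 in controls, wholly below them. Of the 3, 1 was called lower, beside 0.82% of all genes. Mast cell markers summed to 11.34 to 12.19 in double cKO uteri and 11.77 to 13.81 in controls, with 0 of 8 called. Double cKO replicate 1 stood apart from replicates 2 and 3 in its oviduct and ciliated cell markers, at 13.42 against 10.54 and 9.47, and in its proliferation genes, at 12.28 against 14.32 and 13.98. Controls had 11.61 to 12.60 for the oviduct and ciliated markers and 13.16 to 14.27 for proliferation. The part of these differences in the member results was not tested. Results without double cKO replicate 1 are given for the called members and for some of the other called genes.

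**Figure D4:**
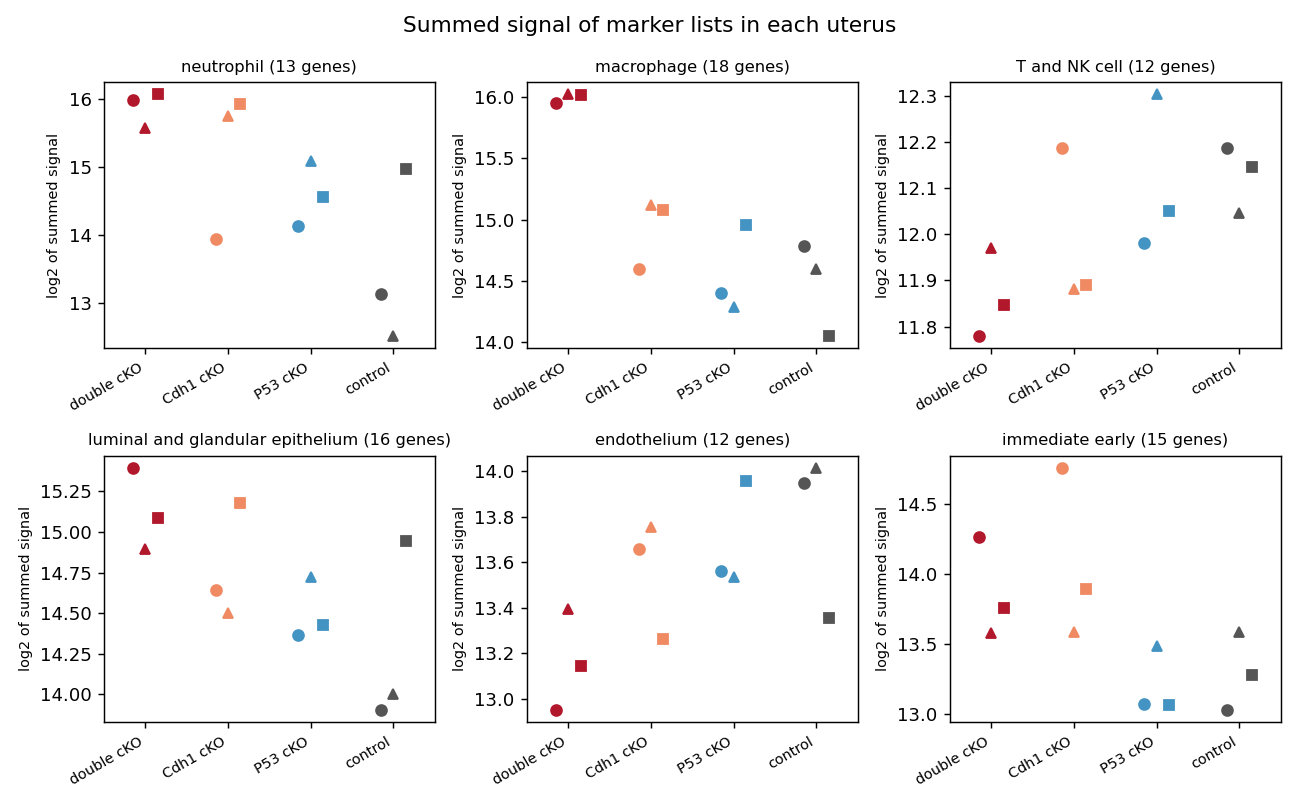
The log2 of the summed signal of 6 marker lists is plotted for each uterus (circles, triangles and squares for replicates 1, 2 and 3, double cKO on the left and control on the right). The macrophage sums of the double cKO, 15.95 to 16.02, lie above all other uteri, while the neutrophil sums of the uteri labelled Cdh1 cKO spread from 13.94 to 15.94.

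Likeness to other genes was described by Pearson r over the 12 arrays among 11309 genes. Predicted and clone-named genes were passed over in the ranking, so the 3 genes given are the most alike of the rest. The groups differ, so r over all arrays mixes differences between and within genotypes, and the r of deviations from the group means is given beside it. The 3 genes most like Osm were Samsn1 (0.97, within groups 0.799), Lilr4b (0.962, within 0.716) and Il7r (0.957, within 0.743). For Osmr these were Stx7 (0.977, within 0.903), Tlr2 (0.976, within 0.924) and Cyba (0.964, within 0.85), and for Socs3 they were Sbno2 (0.949, within 0.74), Vcam1 (0.946, within 0.821) and B4galt6 (0.942, within 0.834). For Stat3 they were Gcnt2 (0.882, within 0.523), Zfp36 (0.876, within 0.69) and Egr2 (0.861, within 0.838), and for Lif they were Celf1 (0.936, within 0.904), Nipa2 (0.932, within 0.915) and Pank2 (0.931, within 0.969).

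Among the members, Osm and Osmr had an r of 0.878 over all arrays and 0.728 within groups. Osm and Socs3 had 0.779 over all arrays but -0.157 within groups, and Osmr and Socs3 had 0.823 over all arrays and 0.251 within groups. Double cKO replicate 1 was highest of its group for Osm and Osmr and lowest for Socs3. Stat3 had an r within groups of 0.709 with Osmr and of 0.57 with Socs3. All of these values share the same 12 arrays and 8 degrees of freedom within groups.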

How the data were processed

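Per the labels' protocols, total RNA of 12 uteri was amplified into biotinylated cRNA. The authors deposited a raw intensity per probe and array, a detection p-value and the bead count, per the file headers, and a processed log2 matrix. The submitters' processing notes name limma 3.10.2. Between the deposited log2 values and the recomputed ones the largest difference was 0.0234. Intensities were background corrected from the detection p-values (936 implied control probes), given an offset of 16, quantile normalised and log2 transformed by neqc (limma 3.58.1, R 4.3.3). Differences of dim probes are drawn towards 0 by the offset. Probes with detection p below 0.05 on at least 3 arrays were kept, and each gene is represented by its detected probe with the highest mean. Platform symbols name the probes, and 99.8% of probes with 1 symbol matched RefSeq.

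A limma model with 1 coefficient per genotype was fitted to all 12 arrays (8 residual and 2.84 prior degrees of freedom), with 2-sided p-values adjusted by Benjamini-Hochberg over 12194 genes and calls below 0.05. Errors are standard errors for differences. A fold written as "at least" sets a probe that is undetected on some arrays of the dimmer group at no less than the lowest detected signal of each array. The fit was tested on simulated data. The number of arrays limits the precision, and the labels do not name batches, so p-values reflect only how much these uteri vary. Same-numbered arrays of the Cdh1 cKO and control groups deviated together (r 0.218 to 0.332), so the replicate block was tried there. In that comparison no member was called with or without the block, so no call could be lost. In the fit of all arrays the block lost calls of Socs3, Osmr and Stat3, given below. Replicate numbers come from the titles. All members were named, with, from each list, called genes of smallest adjusted p (up to 4) and uncalled genes of highest mean (up to 3). For called members and Lif the 3 most alike genes were named, passing over predicted and clone-named genes. Jak1, Cebpb, Junb, Bcl3 and Cp were named after their values were seen. The members and lists were chosen with earlier results of these data known.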

Additional observations from a re-analysis of the deposited data

How the results depend on the processing

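The member differences from the limma fit were recomputed under the alternatives, except that a fit of only 2 groups gives no interaction, and the cause of a changed call was not tested. Osm in the double cKO against control was called under every alternative and without any 1 of the 6 arrays (1.26 to 2.10 over the other alternatives, 1.69 to 2.47 with 1 array left out). With the replicate number as a block in the fit of all arrays, the lost calls were Socs3 against control (1.74, adjusted p 0.07059) and, against P53 cKO, Osmr (1.57, adjusted p 0.06329), Stat3 (0.83, adjusted p 0.09248) and Socs3 (1.88, adjusted p 0.0818). The block gave 214 called genes for double cKO against control, 104 against P53 cKO and 0 for the interaction, and in a fit of the Cdh1 cKO and control arrays alone, chosen after seeing the data, 0. What equal replicate numbers stand for could not be taken from the labels. Outside the Cdh1 cKO and control pair, deviations of same-numbered arrays had an r of -0.648 to 0.0866.

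In fits of only 2 groups, with fewer degrees of freedom, Osmr against control had 1.51 (adjusted p 0.054), and against P53 cKO Osm had 2.17 (0.05754), Osmr 1.57 (0.07007) and Stat3 0.83 (0.1173). Those fits called 0 genes for Cdh1 cKO against control, 1 for P53 cKO against control and 7 for double cKO against Cdh1 cKO, where the fit of all arrays called 1, 2 and 60. Stat3 against P53 cKO was 0.74 (adjusted p 0.08001) with scale normalization and 0.70 (adjusted p 0.133) with the mean of its probes. Socs3 against P53 cKO was 1.88 (adjusted p 0.05119) with no filter on detection.

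The normexp offset of 50 called 0 genes for Cdh1 cKO against control and 7 in the interaction, where the reported fit called 12. No filter gave 0 and 0 for these, and the mean of probes 2 in the interaction. With every probe as a feature, 2 were called for Cdh1 cKO and 5 for P53 cKO against control, 92 for double cKO against Cdh1 cKO and 3 in the interaction. Array quality weights, whose estimate did not converge and gave double cKO replicate 3 a weight of 11.7, called 4210 genes for double cKO against control, 3 for Cdh1 cKO and 6 for P53 cKO against control, 210 for double cKO against Cdh1 cKO, 3672 against P53 cKO and 58 in the interaction. With these weights the sign turned for Lifr against control (0.075), Il6st against Cdh1 cKO (0.040) and the Lifr interaction (-0.070), and 6 differences that the reported fit did not call, of Lif, Il6ra, Il6st, Stat3 and Osm, were called. The Osm one, double cKO against Cdh1 cKO, was also called without double cKO replicate 2 (1.90, adjusted p 0.02425).

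With 1 array left out, called genes ranged from 117 to 553 for double cKO against control, 0 to 38 for Cdh1 cKO and 2 to 9 for P53 cKO against control, 27 to 80 for double cKO against Cdh1 cKO, 68 to 139 against P53 cKO and 0 to 17 in the interaction. Called member differences ranged, against control, from 1.22 to 1.77 for Osmr and 1.55 to 1.89 for Socs3, and against P53 cKO from 1.75 to 2.54 for Osm, 1.28 to 1.83 for Osmr, 0.70 to 0.95 for Stat3 and 1.65 to 2.17 for Socs3. The sign turned in 18 cases, none of them called. For Il6st the ranges were -0.47 to 1.63 for double cKO, -0.10 to 1.99 for Cdh1 cKO and -0.59 to 1.51 for P53 cKO against control, -0.10 to 0.25 for double cKO against P53 cKO and -1.87 to 0.22 in the interaction. For Lifr they were -0.32 to 0.21 for double cKO and -0.12 to 0.41 for Cdh1 cKO against control and -0.17 to 0.36 in the interaction. For Lif in Cdh1 cKO against control the range was -0.20 to 0.43, and in P53 cKO against control it was -0.20 to 0.076 for Osm, -0.23 to 0.077 for Osmr and -0.43 to 0.086 for Socs3. Lif, Lifr, Osm in P53 cKO and control, and Il6 lie near the detection limit, where differences are least precise.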
